A study of Drosophila melanogaster with 18 samples.

Results

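The common effect of RU486 (mifepristone) on fly RNA was examined over all 18 libraries of the series, 3 for each of 6 groups, in a model with a term for the experiment and a term for the drug. The genes described are those in which this common effect passed an adjusted p under 0.05 and whose fold change had the same sign in each of the 3 experiments. They came to 608 of the 10038 genes that could be measured in every experiment (6.06%), 358 of them higher (3.57%) and 250 lower (2.49%) after RU486. The first experiment compared thoraces of Act88F-GS-Gal4 flies fed RU486 with thoraces of the same stock fed ethanol, the second did so in thoraces of w1118 flies, and the third in heads of elav-GS-Gal4 flies. All flies were adult males that spent 4 days on normal food and then 10 days on food with 100 µM RU486 in ethanol or with ethanol alone (control). The labels name no transgene for GeneSwitch to induce. In Act88F-GS the driver stands behind a flight muscle promoter and in elav-GS behind a neuronal promoter, and w1118 carries none. The heads differ from the thoraces in stock as well as in tissue, which cannot be told apart. The samples were bulk tissue, in which fewer cells of a type and less RNA per cell cannot be told apart either.

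GeneSwitch joins a Gal4 DNA-binding domain to the ligand-binding domain of the human progesterone receptor and an activation domain, and it becomes active when RU486 binds it. In mammals RU486 is an antagonist of the progesterone and glucocorticoid receptors, and flies have no close counterpart of the progesterone receptor. The w1118 flies lack GeneSwitch altogether. The rule for shared genes asks only for the same sign in w1118, where edgeR called no gene alone (smallest adjusted p 0.539). Whether the shared changes depend on the driver was not tested.

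Reads counted on genes ran from 34020840 to 96176923 per library. Values below are CPM, the reads of a gene relative to the size of its library, scaled by the TMM method over the 18 libraries, and fold changes are log2 values of RU486 over control with their standard error (SE). Changes within 1 experiment use the scaling of that experiment alone. Neuron markers summed to 2300 to 3760 CPM in the heads and to 434 to 1060 CPM in the thoraces, and flight muscle markers to 1370 to 2340 CPM in the heads and 3400 to 9830 CPM in the thoraces. In the heads the flight muscle sum was almost all Mhc, with Act88F, fln and TpnC4 at 4.9 CPM or less. Accessory gland genes summed to 1.94, 1.58 and 1.73 CPM in the RU486 heads, against 1310, 351 and 2.06 CPM in the control heads. Midgut genes summed to 3.41, 2.67 and 2.96 CPM in the RU486 heads, against 1830, 560 and 4.6 CPM in the control heads. Head controls 1 and 2 thus held transcripts of other organs, and male germline genes likewise stood at 4620 and 1530 CPM there and at 338 to 417 CPM in the other 4 head libraries. In w1118 thoraces accessory gland genes summed to 17, 541 and 957 CPM after RU486, against 1640, 1380 and 1850 CPM in the controls, so that RU486 replicate 1 was far below the rest. Photoreceptor genes summed to 191, 195 and 265 CPM in RU486-fed Act88F-GS thoraces, against 2010, 151 and 184 CPM in the controls, so that control 1 carried head transcripts, and 221 shared rises and 158 shared falls were found without it. Head controls 1 and 2 and w1118 RU486 replicate 1 were left out as well, and a head or w1118 change whose sign turned without them is given beside the gene.

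**Figure D1:**
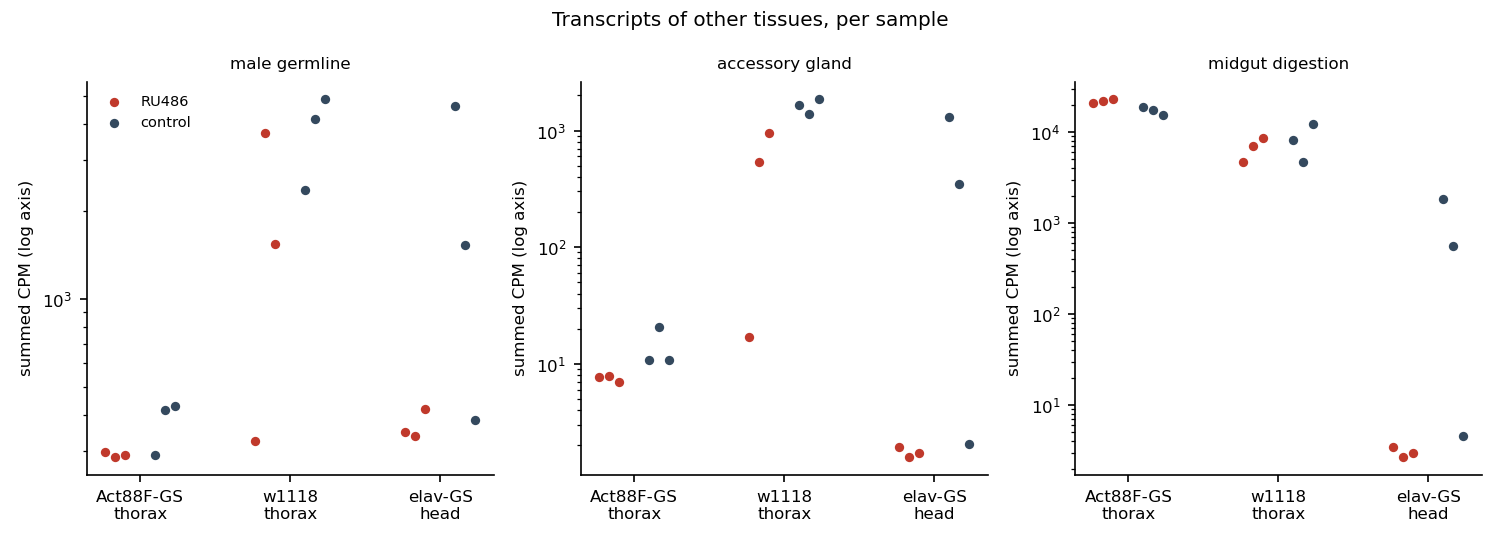
Summed CPM (log axis) of male germline, accessory gland and midgut genes in each library, with the 3 RU486 libraries of an experiment left of its 3 controls. Head controls 1 and 2 sit at 1310 and 351 CPM for accessory gland genes while control 3 sits at 2.06 CPM, and w1118 RU486 replicate 1 sits at 17 CPM.

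Over the 13235 genes tested in all libraries, edgeR's quasi-likelihood test called 378 genes higher (2.86%) and 273 lower (2.06%) after RU486 at an adjusted p under 0.05. The smallest adjusted p was 0.0196, and at an unadjusted p under 0.05 the counts were 1582 higher and 2241 lower. Of the 10038 genes measured in every experiment 370 (3.69%) were called higher and 252 (2.51%) lower, and 14 of these calls (0.139%) did not have the same sign in all 3 experiments. This fit counts a difference between experiments as spread, so a gene whose response changes sign is unlikely to be called by it. An unweighted mean of the 3 contrasts called 1243 genes higher and 1949 lower. Of these, 930 and 714 were measured in all 3 experiments with 1 sign. Irrespective of p, 1929 genes (19.2%) were higher and 1552 (15.5%) lower in all 3 experiments. The remaining 608 called genes are the shared genes of the following paragraphs. P-values of the common fit measure the spread of samples around that fit, which includes differences in the RU486 response between experiments. EdgeR's coefficient of variation was 56.5% in that fit, and 18.3% in Act88F-GS, 40.7% in w1118 and 30.5% in elav-GS fitted alone. P-values within 1 experiment, or of the difference between experiments, measure the spread between samples of a group, which the study describes as biological replicates.

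The calls depended on particular libraries and on the use of replicate numbers. In w1118 thoraces same-numbered libraries deviated together, which the reported fit leaves out of account. With the replicate number as a block there, chosen after seeing the data, 259 rises and 239 falls were shared, 254 and 209 of them among the 608. Of the genes in the gene lists or named by rank, 15 then missed the threshold, at adjusted p from 0.0503 to 0.0709: Dhc93AB, CG14692, MRP, ss, Dif, Tl, cact, psh, Act87E, Mp20, Pbprp1 and Cpr62Bc among the rises, and CG30000, Ero1L and Mcm6 among the falls. With the block in all 3 experiments edgeR called no gene (1384 higher and 1633 lower at an unadjusted p under 0.05). Same-numbered libraries did not deviate together in Act88F-GS or elav-GS, and the labels do not say what a replicate number marks. Without head controls 1 and 2 edgeR called no gene (1293 higher and 1954 lower at an unadjusted p under 0.05). All 358 shared rises and all 250 shared falls then kept the sign of their common change, with medians of 0.33 and -0.27. They had been chosen with these same libraries, so this is a description and no independent support. Against head control 3 alone, 352 of the 358 rises but only 155 of the 250 falls kept their sign in the heads, where 51.5% of all measured genes were higher and 48.3% lower. The median head change of the rises was then 0.42, and that of the falls -0.02. Without w1118 RU486 replicate 1 the w1118 sign held for 312 of the rises and 250 of the falls. Leaving out 1 library at a time gave between 13 and 527 shared rises and between 10 and 403 shared falls, with 13 and 10 without Act88F-GS control replicate 3. The split between directions moved with the scaling, to 653 higher and 210 lower with DESeq2's size factors and to 666 higher and 175 lower with total counts only. DESeq2 itself called 1252 shared rises and 671 shared falls.

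**Figure D2:**
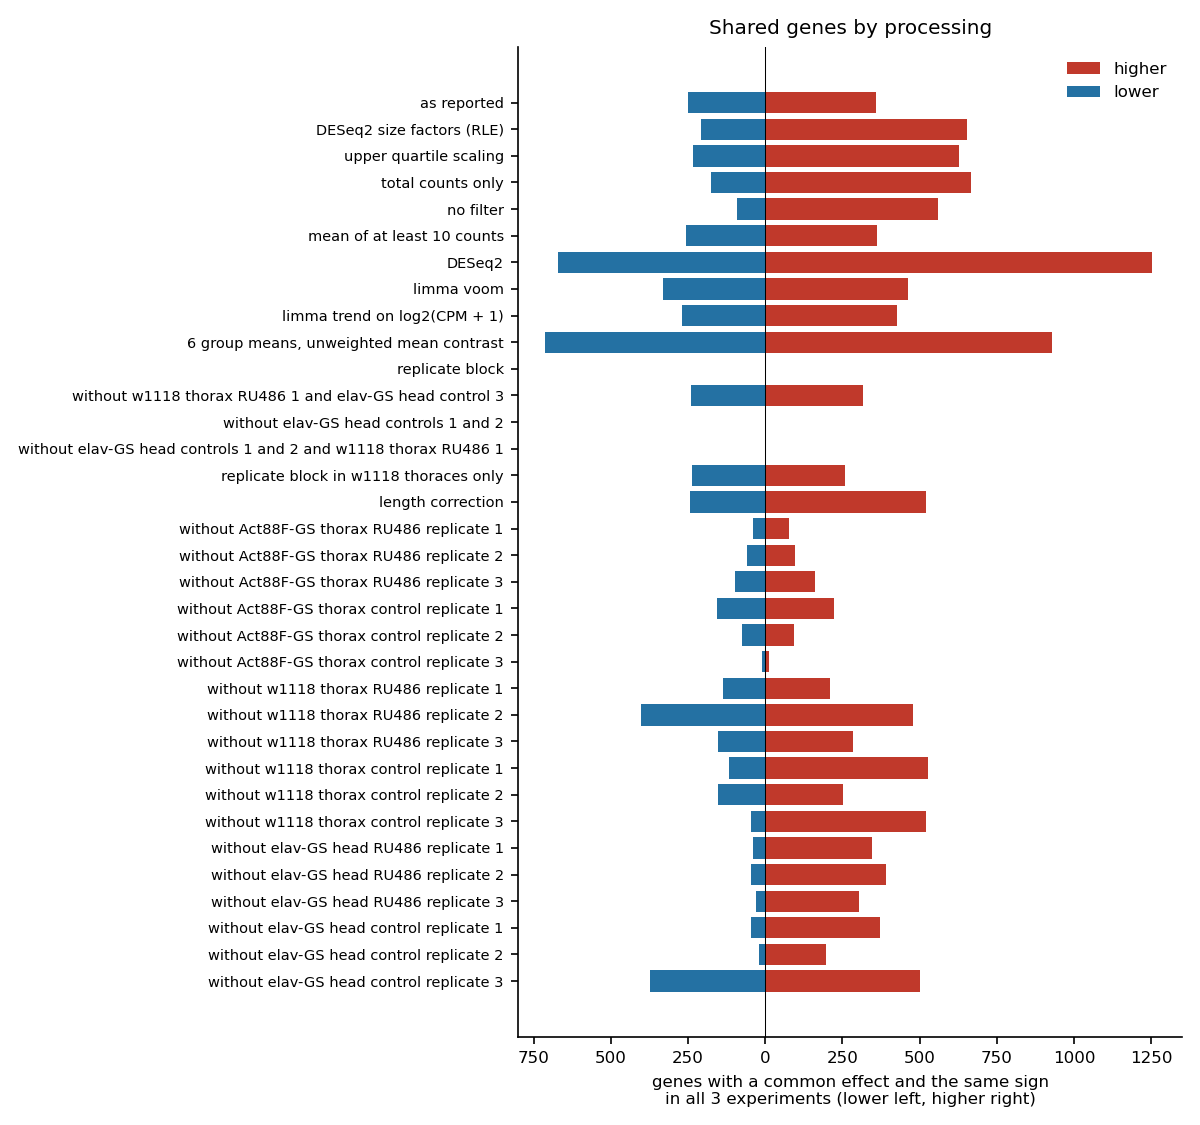
Number of shared genes higher and lower after RU486, as reported and under each alternative. The bars run from 0 genes with the replicate block in all experiments or without head controls 1 and 2 to 1252 higher with DESeq2 and 714 lower with an unweighted mean of the 3 contrasts, with 358 higher and 250 lower as reported.

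The shared rises were smallest in w1118 thoraces. The median change of the 358 rises was 0.38 in the common fit, and it was 0.43 in Act88F-GS thoraces, 0.16 in w1118 thoraces and 0.50 in elav-GS heads. The change was smallest in w1118 for 305 of the 358 rises (85.2%, against 45.6% of all measured genes) and largest in the heads for 212 (59.2%, against 25.6%). The 250 falls had a median of -0.27, with -0.46 in Act88F-GS thoraces, -0.20 in w1118 thoraces and -0.20 in elav-GS heads. The Act88F-GS change was the largest for 199 of the falls (79.6%, against 58.3% of all measured genes). All measured genes had medians of 0.01 in Act88F-GS thoraces, 0.02 in w1118 thoraces and 0.01 in elav-GS heads. A common change over 1 on the log2 scale in either direction was reached by 23 of the rises and 11 of the falls.

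Fitted alone, w1118 thoraces gave no call among 12980 genes in edgeR's quasi-likelihood test, with a smallest adjusted p of 0.539, and 665 genes were higher (5.12%) and 529 lower (4.08%) at an unadjusted p under 0.05. The shared genes passed that unadjusted threshold in w1118 in 74 of 358 rises and 58 of 250 falls. With the replicate block w1118 still gave no call (smallest adjusted p 0.371), and 849 of the 12980 genes were higher and 863 lower at the unadjusted threshold, among them 104 of the rises and 108 of the falls. In Act88F-GS thoraces 226 rises and 210 falls passed an adjusted p under 0.05 on their own, where 12.6% of all tested genes were called higher and 19.9% lower. In elav-GS heads 188 rises and 1 fall did, where 5% of all tested genes were called higher and 0.779% lower. These counts use samples that also entered the common fit and are a description. An unadjusted p under 0.05 in each of the 3 experiments, with 1 sign, was met by 35 genes that were higher (0.349%) and 6 that were lower (0.0598%), and in edgeR 0 genes held when the largest of the 3 p-values was adjusted over all genes. The RU486 response differed between experiments, in a test with 2 degrees of freedom, for 36% of the shared rises and 22% of the shared falls, and for 2600 of all measured genes (25.9%).

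**Figure D3:**
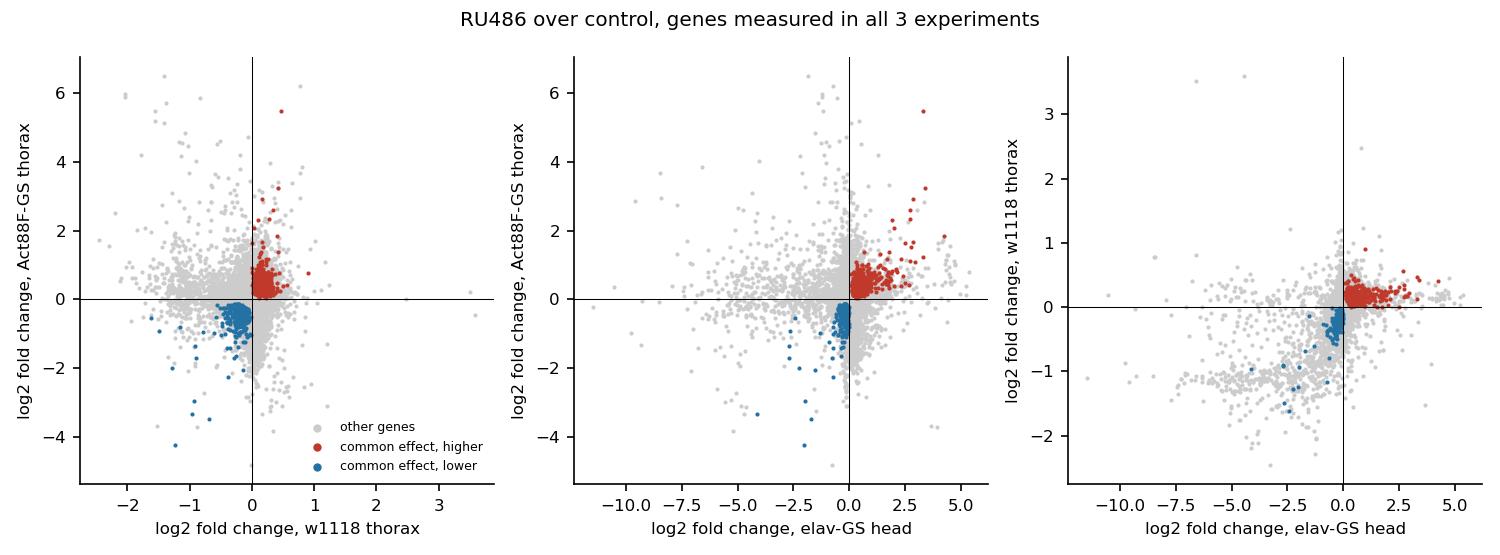
Log2 fold change (RU486 over control) of each of the 10038 measured genes in one experiment plotted against another, with the 358 shared rises, the 250 shared falls and other genes in separate colours. The shared genes lie in opposite quadrants by the rule that chose them, and the median w1118 change of the rises is 0.16.

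Over all 10038 genes the log2 fold changes of Act88F-GS and w1118 thoraces correlated at a Pearson r of -0.105, those of Act88F-GS thoraces and elav-GS heads at -0.008, and those of w1118 thoraces and elav-GS heads at 0.515. These values are across genes, which are not independent replicates. The value for w1118 thoraces and heads was -0.016 without head controls 1 and 2. An experiment that had not been used for a call was then read. With w1118 held out, the other 2 experiments called 588 genes higher and 190 lower among those measured in w1118. The w1118 sign was the same for 469 of these rises (79.8%) and 143 of these falls (75.3%), where 52.2% of all measured genes were higher and 47.8% lower in w1118. An unadjusted p under 0.05 in w1118 with the same sign was found for 43 of the rises (7.31%, with 5.95% over all genes) and 18 of the falls (9.47%, with 3.4% over all genes). With either of the other experiments held out edgeR made no call. At an unadjusted p under 0.05 in the other 2 experiments (1291 higher and 864 lower), Act88F-GS thoraces had the same sign for 61% of the rises and 49.7% of the falls. For elav-GS heads (1689 higher and 1559 lower) the shares were 67.9% and 54.3%.

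Among the shared genes, every RU486 library lay above every control of its experiment, in all 3 experiments, in 76 rises (0.757% of measured genes), and below in 10 falls (0.0996%). Irrespective of the call these counts were 102 (1.02%) and 11 (0.11%). Separation was judged on the scaling over all 18 libraries, while changes within 1 experiment use the scaling of that experiment. With DESeq2's size factors the separated shared genes came to 82 rises and 26 falls. They came to 110 and 16 with upper quartiles, and to 89 and 16 with total counts only. Within 1 experiment, the RU486 libraries lay above the controls in 28.4% of measured genes and below in 23.7% in Act88F-GS, in 18.9% and 3.98% in w1118, and in 16.4% and 5.8% in elav-GS. The 10 rises whose smallest change was greatest, among those whose log2 CPM averaged 1 or more, and the 7 falls that qualified are described first.

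Dhc93AB, a heavy chain of the axonemal dynein that moves cilia, was one of these rises. In Act88F-GS thoraces it stood at 40.8, 40.1 and 42.2 CPM after RU486, against 29.3, 28.1 and 27.4 CPM in the controls. In w1118 thoraces it stood at 27.8, 29.6 and 34.5 CPM after RU486, against 22.5, 24.8 and 24.2 CPM. In elav-GS heads it stood at 24.1, 39 and 22.7 CPM after RU486, against 4.13, 4.62 and 5.74 CPM. The head groups were far apart and RU486 head 2 was the highest head library. The common change of Dhc93AB was 1.07 (SE 0.27, edgeR adjusted p = 0.0359), with 0.47 in Act88F-GS, 0.30 in w1118 and 2.49 in elav-GS. CG14692 had the same form, at 0.40, 0.25 and 2.33 in these experiments.

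Spz5, a ligand of the Spätzle family that binds Toll receptors, had one of the lowest p-values as well as a separated change in each stock. It stood at 11.8, 11.5 and 13.9 CPM in RU486-fed Act88F-GS thoraces, against 7.71, 7.59 and 8.38 CPM in their controls. In w1118 thoraces the values were 13.7, 12.2 and 13.3 CPM after RU486, against 10.1, 9.69 and 11.4 CPM. In elav-GS heads they were 21.7, 22.9 and 22.2 CPM after RU486, against 7.88, 12.1 and 12.8 CPM. The groups did not overlap in any stock. The common change of spz5 was 0.61 (SE 0.10, adjusted p = 0.0196). It was 0.59 in Act88F-GS, 0.27 in w1118 and 0.96 in elav-GS, and 0.88 in the heads against control 3 alone.

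Shot, the spectraplakin that links actin to microtubules, was the most abundant of these genes. It stood at 2630, 2510 and 2630 CPM in RU486-fed Act88F-GS thoraces, against 1670, 2170 and 2170 CPM in their controls. In w1118 it stood at 1260, 1430 and 1580 CPM after RU486, against 1070, 1180 and 1150 CPM, and in heads at 1440, 1500 and 1940 CPM after RU486, against 1040, 937 and 1320 CPM. The common change of shot was 0.37 (SE 0.08, adjusted p = 0.0238), and a difference between experiments was not detected (adjusted p = 0.755). CG33978 stood at 57.7, 52.6 and 52.7 CPM in RU486-fed Act88F-GS thoraces, against 32, 43 and 45.8 CPM in their controls. It stood at 42.7, 41.1 and 47.2 CPM in RU486-fed w1118 thoraces, against 34, 31.5 and 34 CPM in their controls, and at 50.7, 56.7 and 77.1 CPM in RU486 heads, against 30.3, 30.5 and 36.7 CPM in control heads. The groups did not overlap in any stock, and CG33978 rose by a common 0.52 (SE 0.09, adjusted p = 0.0196).

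The remaining separated rises were of several kinds. Empty spiracles (ems), a homeodomain factor of head segments and the olfactory system, stood at 6.32, 8.87 and 7.56 CPM in RU486 heads, against 1.95, 2.29 and 3.04 CPM in control heads, and had a common change of 0.79 (SE 0.18, adjusted p = 0.0268). Its w1118 change of 0.26 was 0.12 without RU486 replicate 1. Act79B, an actin of tubular muscles, was at 209, 373 and 181 CPM in RU486 heads, against 63.6, 64.5 and 71.8 CPM in control heads, with RU486 head 2 again the highest. Its common change was 0.90 (SE 0.21, adjusted p = 0.029). Dar1, a Krüppel-like factor of dendrite growth, had a common change of 0.33 (SE 0.07), CG11668 one of 0.37 (SE 0.08) and the ABC transporter gene CG9664 one of 0.37 (SE 0.08).

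**Figure D4:**
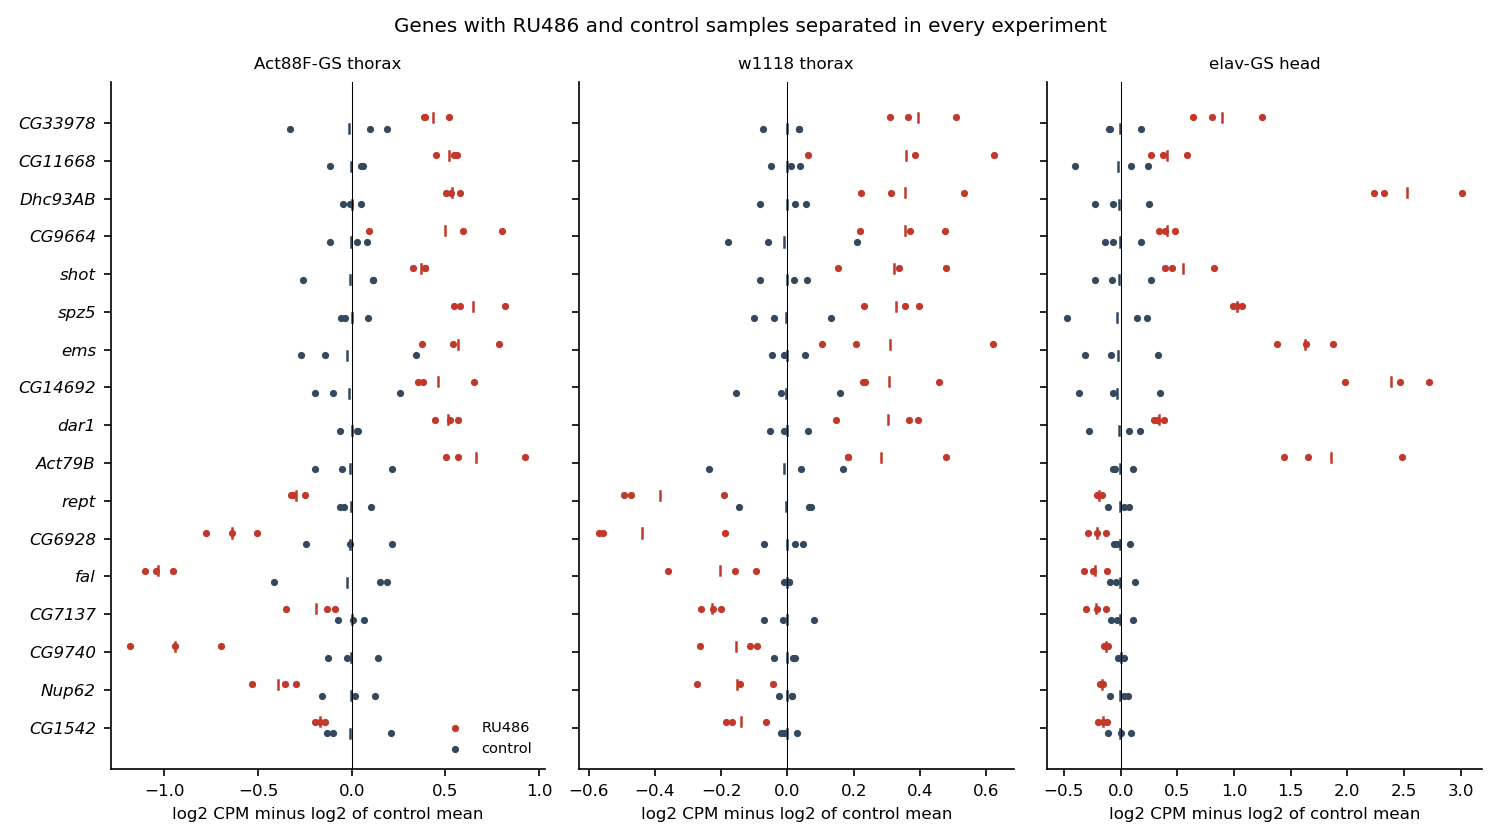
Log2 CPM of each library relative to its control mean, for the 10 rises and 7 falls with the largest smallest change, by experiment, with RU486 (red) drawn above control (dark), a tick at each mean and a scale of its own in each panel. Every RU486 point lies on 1 side of every control point in each experiment, as the rule requires.

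By smallest p in the common fit, the leading rises were cpo, CG34120, grh, spz5 and CG9850, all at an adjusted p = 0.0196. Couch potato (cpo) encodes an RNA-binding protein of the nervous system and has been linked to diapause. Its level in Act88F-GS thoraces was 217, 208 and 210 CPM after RU486, against 142, 169 and 171 CPM. In w1118 it was 220, 195 and 227 CPM after RU486, against 175, 170 and 185 CPM, and in heads 368, 395 and 422 CPM after RU486, against 237, 251 and 316 CPM. The groups of cpo did not overlap in any stock, and its change was 0.34 in Act88F-GS, 0.21 in w1118, 0.48 in elav-GS and 0.35 (SE 0.05) in the common fit. Grainyhead (grh), a transcription factor of epidermis and wound repair, had changes of 0.39, 0.23 and 0.46 in the same order and a common change of 0.37 (SE 0.06). The ABC transporter gene CG34120 (now ldd) had a common change of 0.46 (SE 0.07) and the ADAMTS protease gene CG9850 (now sona) one of 0.38 (SE 0.06). For CG34120 and CG9850 the w1118 groups overlapped.

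Odorant-binding genes were higher in Act88F-GS thoraces and in heads, where 9 and 12 of the 24 measured were called on their own, against 12.6% and 5% of all tested genes. Their products are small secreted carriers in the fluid around sensory neurons, and 6 of the 24 were shared rises (against 3.57% of all measured genes) and none a shared fall. In all, 16 of the 24 were higher in each of the 3 experiments, called or not (against 19.2% of all measured genes), and 0 were lower in each. Their median change was 0.64 in the common fit, where all measured genes had 0, and 0.78 in Act88F-GS, 0.10 in w1118 and 1.07 in elav-GS. In Act88F-GS thoraces Obp57a was 0.78 higher on the log2 scale after RU486, with no overlap. In elav-GS heads it was at 70, 103 and 69.3 CPM after RU486, against 29.8, 37.5 and 41.5 CPM. In w1118 the values were 168, 109 and 149 CPM after RU486, against 104, 106 and 138 CPM, and there the groups overlapped. Obp57a had a common change of 0.71 (SE 0.12) and Obp57c, another member of the family, one of 0.77 (SE 0.14), both at an adjusted p = 0.0196.

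The larger fold changes came from rarer binding proteins. Obp19a was at 8.41, 19.8 and 11.5 CPM in RU486 heads, against 0.826, 0.974 and 1.86 CPM in control heads. In Act88F-GS thoraces it was at 1.51, 0.915 and 2 CPM after RU486, against 0.17, 0.206 and 0.061 CPM. Its groups were apart in both, and overlapped in w1118, with a common change of 2.40 (SE 0.47, adjusted p = 0.0236). Pbprp3 (now Obp83a), an antennal binding protein, was at 46.8, 102 and 65.1 CPM in RU486 heads, against 4.43, 6.14 and 10.7 CPM in control heads. In Act88F-GS thoraces it was at 4.08, 0.251 and 6.09 CPM after RU486, against 0.127, 0.0343 and 0.0305 CPM, so that RU486 thorax 2 lay near the controls. In w1118 it was at 0.169, 0.177 and 0.17 CPM after RU486, against 0.14, 0.0443 and 0.174 CPM, and the groups overlapped. Pbprp3 had the largest common change of the 6, at 3.04 (SE 0.75, adjusted p = 0.0346). Pbprp1 (now Obp69a) and Pbprp5 (now Obp28a) had common changes of 1.43 (SE 0.36) and 1.92 (SE 0.47). RU486 head 2 was the highest head library for all 6 binding proteins, and Act88F-GS RU486 thorax 2 the lowest of its group for Obp19a, Obp57a, Pbprp1, Pbprp3 and Pbprp5. Against head control 3 alone the head changes of the 6 genes ran from 1.03 for Obp57a to 2.91 for Obp19a. Without Act88F-GS control replicate 3 none of the 24 genes was shared.

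Lists of receptors and channels were added after the data were seen, and 3.57% of all measured genes were shared rises. Of 16 pickpocket channels ppk, a channel of nociceptive neurons (0.81, SE 0.19), and of 9 ionotropic receptors Ir40a, a receptor of humidity sensing (1.11, SE 0.26), were shared rises, while 0 of 8 odorant receptors and 0 of 9 gustatory receptors were. Of 8 axonemal dynein heavy chains 2 were shared rises. That list had a median of -0.69 in the common fit, with 0.34 in Act88F-GS, -0.78 in w1118 and -1.37 in elav-GS. In all 3 experiments 3 of the 8 were higher and 2 lower, against 19.2% and 15.5% of all measured genes. The mechanotransduction channel nompC (0.78, SE 0.20), which belongs to no list, was picked out after its values had been seen. It stood at 9.92, 16.4 and 11.3 CPM in RU486 heads, against 3.07, 3.08 and 4.05 CPM in control heads, and at 18.3, 19.3 and 20.5 CPM in RU486-fed w1118 thoraces, against 16.8, 14.4 and 16.6 CPM in their controls. The groups of ppk, Ir40a and nompC were apart in each stock. Spineless (ss), the fly counterpart of the aryl hydrocarbon receptor and a selector of antennal identity, belonged to the list of xenobiotic sensing. It stood at 11.7, 18.9 and 12.6 CPM in RU486 heads, against 2.83, 3.26 and 3.98 CPM in control heads, and at 16.2, 15.9 and 17.7 CPM in RU486-fed w1118 thoraces, against 12.4, 14.4 and 13.9 CPM in their controls. The groups of ss were apart in both tissues, by 2.02 in the heads and 0.23 in w1118. Neuron markers were apart in w1118 as well, at 576, 589 and 691 CPM in RU486-fed w1118 thoraces, against 434, 466 and 528 CPM in their controls, and their part in these rises was not tested.

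**Figure D5:**
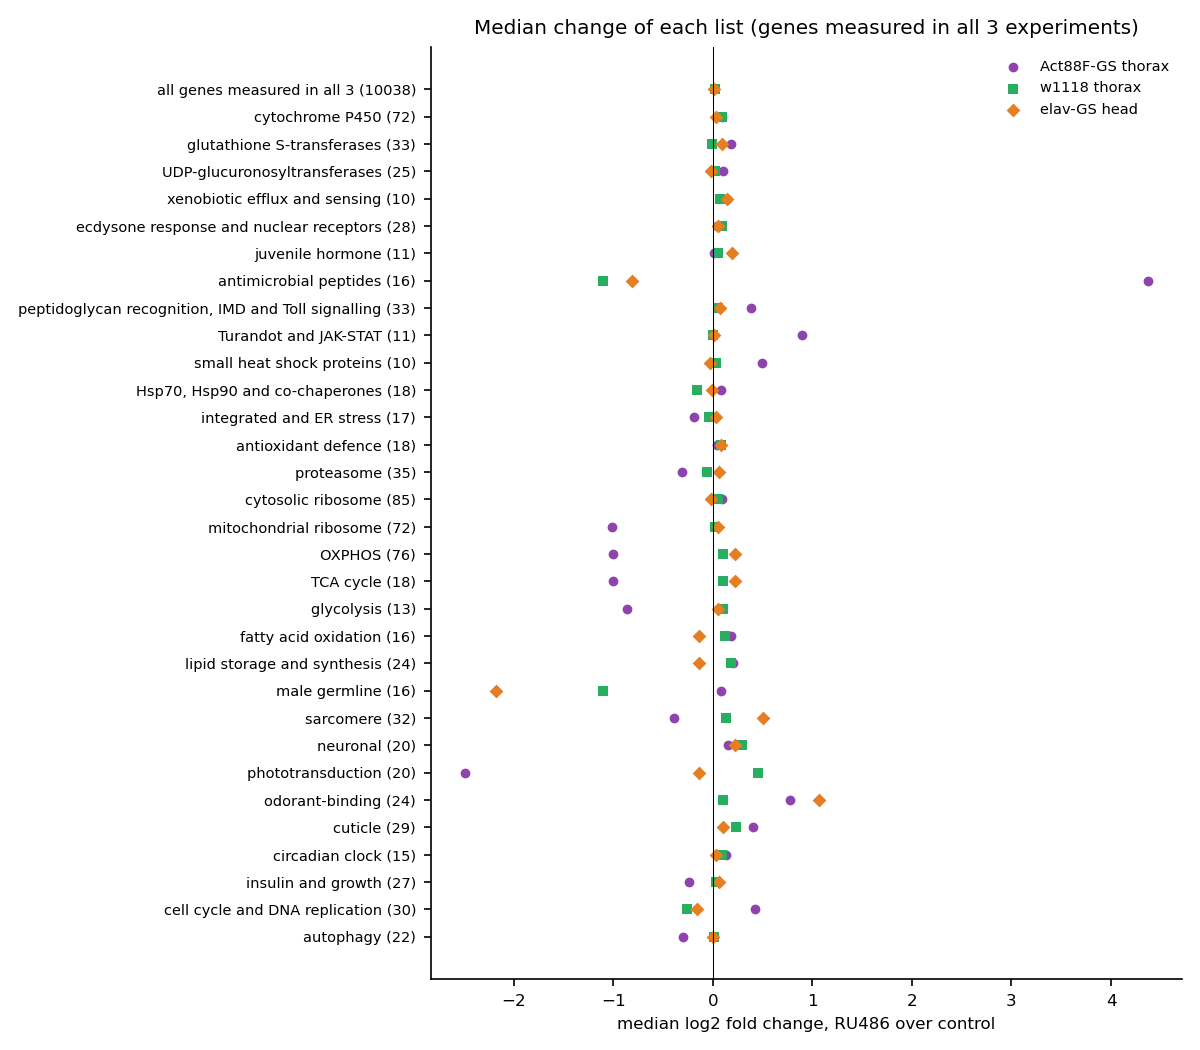
Median log2 fold change (RU486 over control) of gene lists with at least 10 measured genes in Act88F-GS thoraces (circles), w1118 thoraces (squares) and elav-GS heads (diamonds). Odorant-binding genes lie at 0.78, 0.10 and 1.07, the mitochondrial ribosome at -1.01, 0.02 and 0.05, and antimicrobial peptides at 4.37, -1.10 and -0.81.

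Cytochrome P450 enzymes oxidise hormones, pheromones and toxins, and 6 of 72 were shared rises (against 3.57% of all measured genes) with no shared fall (against 2.49%). The median of the family was 0.04 in the common fit. Cyp4ac2 was at 36.3, 33 and 37.3 CPM in RU486-fed Act88F-GS thoraces, against 21.1, 19 and 19.5 CPM in their controls, and at 43.9, 59.7 and 41.8 CPM in RU486 heads, against 17.9, 24.6 and 29.3 CPM in control heads. In w1118 the groups overlapped, at 78.6, 57.1 and 66.4 CPM after RU486, against 48.3, 53.2 and 62.9 CPM. The common change of Cyp4ac2 was 0.66 (SE 0.11, adjusted p = 0.0196). Cyp4d21 rose most in the heads, where it was at 685, 845 and 642 CPM after RU486, against 130, 195 and 218 CPM (head change 1.94, common change 0.98, SE 0.21). Cyp313a1 was at 1490, 1730 and 1490 CPM in RU486 heads, against 497, 681 and 794 CPM in control heads (common change 0.53, SE 0.14). Cyp6a20, which is linked to aggression in male flies, rose by a common 0.43 (SE 0.10), but its w1118 change was 0.05, or -0.04 without w1118 RU486 replicate 1. Cyp4d20 and Cyp6a21 completed the group at 0.33 and 0.38. The w1118 groups overlapped for all 6. Without Act88F-GS control replicate 3 none of the 72 genes was shared, and without w1118 control replicate 3 the number was 10.

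Conjugation and efflux genes were read against the same shares of all measured genes, 3.57% for shared rises and 2.49% for shared falls. Of 33 measured glutathione S-transferase genes, Mgstl (0.38, SE 0.07) and CG9363 (now GstZ2, 0.36, SE 0.08) were shared rises and CG30000 (now GstT1, -0.22, SE 0.06) a shared fall, whose head change of -0.11 was 0.01 against control 3 alone. Of 25 UDP-glucuronosyltransferase genes CG17324 (0.53, SE 0.13) was the shared one, and its w1118 change of 0.01 was -0.12 without RU486 replicate 1. Among 10 genes of efflux and sensing 3 were shared rises. MRP, an ABC exporter, rose by 0.19 (SE 0.05) and cnc, the fly Nrf2, by 0.17 (SE 0.04), besides ss. MRP was at 366, 363 and 347 CPM in RU486-fed Act88F-GS thoraces, against 297, 341 and 307 CPM in their controls. It was at 304, 314 and 316 CPM in RU486-fed w1118 thoraces, against 299, 269 and 281 CPM in their controls, and at 513, 534 and 596 CPM in RU486 heads, against 369, 399 and 456 CPM in control heads. These rises were small and the groups were apart in each stock, in w1118 only by 304 against 299 CPM. Of 28 genes of the ecdysone response and nuclear receptors, the orphan receptors kni (0.45, SE 0.11) and knrl (0.35, SE 0.09) were shared rises, and no gene of the list was a shared fall. The w1118 change of kni was -0.05 without RU486 replicate 1. None of 7 genes of steroid synthesis and none of 11 genes of juvenile hormone was shared.

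The Toll pathway carries signals from secreted proteases through Spätzle to the NF-kB factors of immunity. Of 33 measured genes of peptidoglycan recognition and of IMD and Toll signalling 7 were shared rises (against 3.57% of all measured genes), with no shared fall, and the median of that list was 0.19. Upstream of the receptor, the protease persephone (psh) was at 81.8, 82.3 and 75.2 CPM in RU486-fed Act88F-GS thoraces, against 42.2, 46.6 and 49.6 CPM in their controls. In w1118 psh was at 81.4, 61.9 and 63.2 CPM after RU486, against 57.7, 58.2 and 57.8 CPM, and in heads at 53.3, 53.9 and 52.9 CPM after RU486, against 34.4, 45 and 52.4 CPM. Its groups did not overlap in any stock on the scaling over all libraries, but the margin in heads was only 52.9 against 52.4 CPM. The head change was 0.10 against control 3 alone, in place of 0.21. The common change of psh was 0.38 (SE 0.10, adjusted p = 0.0379). The protease SPE, which cleaves Spätzle, rose by 0.32 (SE 0.08) and the ligand spz by 0.50 (SE 0.12). The receptor Tl rose by 0.29 (SE 0.08), the inhibitor cact by 0.21 (SE 0.06), and the NF-kB factors dl and Dif by 0.47 (SE 0.11) and 0.25 (SE 0.06). With the replicate block in w1118 3 of the 7 were shared, and without Act88F-GS RU486 replicate 1 none of the 33 genes was.

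The 7 genes differed in how far they held outside Act88F-GS thoraces. There spz was at 72.2, 92.9 and 82.4 CPM after RU486, against 41.8, 44.2 and 43 CPM, whereas in w1118 it was at 107, 62.2 and 76.1 CPM after RU486, against 77.8, 65.8 and 68.6 CPM, and the groups overlapped. Against head control 3 alone the head changes of Dif, Tl and SPE were 0.03, -0.01 and 0.09 (with all controls 0.11, 0.15 and 0.28), and those of dl and spz 0.59 and 0.43. Without w1118 RU486 replicate 1 the w1118 change of spz was -0.07. Of 16 antimicrobial peptide genes, dro4 (now Drsl4, 0.39, SE 0.10) and dro5 (now Drsl5, 0.48, SE 0.11), which encode drosomycin-like peptides, were shared rises. Over all measured genes the share was 3.57%. The list as a whole had medians of 4.37 in Act88F-GS, -1.10 in w1118 and -0.81 in elav-GS. In Act88F-GS 15 of the 16 genes were called higher, against 12.6% of all tested genes. None of the 16 was called in w1118, where no gene was, or in elav-GS, where 5% of all tested genes were called higher and 0.779% lower. Reads of such closely related genes may be split by the counting, and their values are uncertain to that extent. The hemocyte markers summed to 991, 883 and 850 CPM in RU486-fed Act88F-GS thoraces, against 498, 804 and 665 CPM in the controls, and to 845, 968 and 970 CPM in RU486 heads, against 606, 628 and 813 CPM in control heads. In w1118 they overlapped, at 796, 659 and 563 CPM after RU486, against 642, 603 and 593 CPM. The hemocyte gene Hml was itself a shared rise (0.49, SE 0.13, chosen after its values were seen), but its w1118 change of 0.09 was -0.07 without RU486 replicate 1. Of the hemocyte markers only Hml was apart in Act88F-GS thoraces, at 575, 508 and 460 CPM after RU486, against 225, 335 and 283 CPM. Pxn, vkg and eater overlapped there, with eater at 38.8, 30.7 and 22.9 CPM after RU486, against 36.4, 77.1 and 55.5 CPM. In heads Hml, eater and vkg were higher without overlap and Pxn overlapped. Markers of the fat body, a main site of Toll signalling, summed to 10300, 8460 and 5900 CPM in RU486-fed Act88F-GS thoraces, against 4980, 6840 and 6670 CPM in their controls. The fat body sums were apart in w1118, at 3200, 2560 and 3100 CPM after RU486, against 2170, 1950 and 2360 CPM. In heads they were 5940, 5350 and 7440 CPM after RU486, against 3980, 4480 and 5600 CPM, and overlapped. The w1118 and head sums were almost all 1 gene, Rfabg, at 3190, 2550 and 3080 CPM in RU486-fed w1118 thoraces, against 2160, 1940 and 2340 CPM. Lsp2 overlapped in w1118, at 12.2, 14.9 and 15.9 CPM after RU486, against 5.53, 8.48 and 15.8 CPM. The part of hemocytes and fat body in the Toll result was not tested.

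Cuticle proteins build the outer covering of the fly. Of 29 measured cuticle protein genes 5 were shared rises (against 3.57% of all measured genes) and none a shared fall (against 2.49%), with a list median of 0.36. Cpr62Bb was at 27.3, 46.7 and 24.1 CPM in RU486 heads, against 5.93, 7.09 and 8.37 CPM in control heads. In Act88F-GS thoraces it was at 55.5, 50.6 and 48.4 CPM after RU486, against 34.1, 24.2 and 26.5 CPM, and in w1118 at 133, 92.5 and 119 CPM after RU486, against 93.1, 84 and 99.7 CPM. Its groups overlapped in w1118, and its common change was 1.06 (SE 0.23, adjusted p = 0.0256). Cpr65Au, Cpr60D, Cpr62Bc and Cpr49Aa rose by 0.67, 0.45, 0.82 and 1.44, and the w1118 value of Cpr49Aa was -0.41 without w1118 RU486 replicate 1. Without Act88F-GS RU486 replicate 1 none of the 29 genes was shared.

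Muscle genes gave 3 shared rises of 32 sarcomere genes (against 3.57% of all measured genes), Act79B, Act87E (0.41, SE 0.11) and Mp20. The list median was -0.39 in Act88F-GS, 0.13 in w1118 and 0.50 in elav-GS. Mp20, a calponin-like muscle protein, was at 596, 682 and 778 CPM in RU486-fed Act88F-GS thoraces, against 433, 340 and 320 CPM in their controls. It was at 514, 504 and 554 CPM in RU486-fed w1118 thoraces, against 465, 464 and 499 CPM in their controls, and its head change was 0.38. The groups of Mp20 were apart in each, in w1118 only by 504 against 499 CPM, and the common change was 0.45 (SE 0.12, adjusted p = 0.0471). Flight muscle markers summed to 4100, 4870 and 8720 CPM in RU486-fed Act88F-GS thoraces, against 9830, 8720 and 8630 CPM in the controls. They summed to 1930, 2340 and 1750 CPM in RU486 heads, against 1370, 1620 and 1720 CPM in the controls, almost all of it Mhc. The markers did not move together in Act88F-GS thoraces. Act88F was at 288, 404 and 1170 CPM after RU486, against 2880, 2490 and 2520 CPM, and TpnC4 was lower as well, without overlap. Mhc overlapped, at 3670, 3930 and 5540 CPM after RU486, against 4960, 4050 and 4120 CPM, as did fln. The part of these markers in the sarcomere values was not tested. With the replicate block in w1118 1 of the 3 sarcomere rises was shared, and without Act88F-GS RU486 replicate 1 none of the 32 sarcomere genes was. Of 20 neuronal genes 18 were higher in all 3 experiments (against 19.2% of all measured genes), the list median was 0.23 and none was called. Neuron markers, apart in w1118 as given above, overlapped elsewhere. They summed to 2940, 2750 and 3760 CPM in RU486 heads, against 2300, 2550 and 3340 CPM in control heads, and to 899, 871 and 1060 CPM in RU486-fed Act88F-GS thoraces, against 746, 858 and 937 CPM in their controls.

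The shared falls had smaller common changes. Reptin (rept), an AAA ATPase of chromatin remodelling complexes, was at 17.6, 16.7 and 16.8 CPM in RU486-fed Act88F-GS thoraces, against 22.4, 20 and 20.3 CPM in their controls. In w1118 it was at 20.3, 25 and 20.6 CPM after RU486, against 25.8, 30 and 29.9 CPM, and in heads at 16.7, 17.1 and 16.6 CPM after RU486, against 20.2, 19.6 and 17.8 CPM. The groups did not overlap in any stock. Rept had a common change of -0.35 (SE 0.06, adjusted p = 0.0196), and its head change of -0.30 was -0.01 against control 3 alone. CG6928 was at 15.6, 14.2 and 12.9 CPM in RU486-fed Act88F-GS thoraces, against 18.7, 25.7 and 22 CPM in their controls. It was at 12.6, 16.4 and 12.7 CPM in RU486-fed w1118 thoraces, against 19.3, 19 and 17.8 CPM in their controls, and at 15.7, 16.5 and 14.8 CPM in RU486 heads, against 17.4, 17.7 and 19.2 CPM in control heads. CG6928 was again apart in each stock, with a common change of -0.48 (SE 0.08, adjusted p = 0.0196), and its head change was -0.22 against control 3.

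The other separated falls had smaller head changes against control 3 alone than against all 3 controls. Nup62, a nucleoporin of the central pore channel, was at 20.8, 20 and 17.7 CPM in RU486-fed Act88F-GS thoraces, against 27.9, 22.9 and 25.9 CPM in their controls. In w1118 it was at 23.5, 25.2 and 21.5 CPM after RU486, against 26.2, 26.2 and 25.5 CPM, and in heads at 16.6, 16.8 and 16.9 CPM after RU486, against 17.6, 19.2 and 19.7 CPM. Its groups did not overlap, its common change was -0.29 (SE 0.05, adjusted p = 0.0196), and its head change of -0.26 was -0.16 against control 3. CG9740 (now Ibf2, an insulator-binding factor) was at 5.45, 4.6 and 3.9 CPM in RU486-fed Act88F-GS thoraces, against 8.69, 9.75 and 8.11 CPM in their controls and had a common change of -0.46 (SE 0.11). CG7137, CG1542 and fal had common changes of -0.27, -0.21 and -0.55. Against control 3 the head change was -0.05 in place of -0.23 for CG9740, -0.25 in place of -0.30 for CG7137, -0.09 in place of -0.25 for CG1542 and -0.05 in place of -0.34 for fal. By smallest p the falls were led by CG9723 (now Nemp, of the nuclear envelope, -0.41, SE 0.06), CG8298 (-0.45, SE 0.07), CG2051 (now Hat1, a histone acetyltransferase, -0.33, SE 0.05), CG6928 and CG12360 (-0.34, SE 0.06), all at an adjusted p = 0.0196. For CG2051 the head change was -0.25, and 0.04 against control 3 alone. For CG9723, CG8298 and CG12360 the head changes of -0.32, -0.35 and -0.25 were -0.18, -0.13 and -0.03.

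Cyclin B (CycB), a driver of mitosis that is also abundant in the male germline, had a large fall. It was at 4.03, 3.55 and 4.25 CPM in RU486-fed Act88F-GS thoraces, against 19.8, 33.5 and 34.4 CPM in their controls. In w1118 it was at 7.92, 13.5 and 12.9 CPM after RU486, against 13.6, 23.8 and 26.2 CPM. In heads it was at 1.98, 2.34 and 1.84 CPM after RU486, against 14.3, 5.39 and 1.4 CPM, so the control head without transcripts of other organs lay below every RU486 head. CycB had a common change of -1.92 (SE 0.39, adjusted p = 0.0238), and its head change of -1.99 was 0.63 against control 3. Of 30 genes of the cell cycle and DNA replication CycB and Mcm6, a subunit of the replicative helicase (-0.23, SE 0.06), were shared falls (against 2.49% of all measured genes) and none a shared rise. The sums of male germline genes were 325, 3720 and 1550 CPM in RU486-fed w1118 thoraces, against 2360, 4150 and 4850 CPM in the controls, and 298, 286 and 291 CPM in RU486-fed Act88F-GS thoraces, against 291, 416 and 427 CPM. Of the 16 germline genes measured in all experiments, 6 were lower in each (against 15.5% of all measured genes) and none was called. The part of germline transcripts in the fall of CycB was not tested.

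Of 18 genes of Hsp70, Hsp90 and co-chaperones 1 was a shared fall, as was 1 of 17 genes of integrated and ER stress, and none of either list was a shared rise. Over all measured genes 2.49% were shared falls and 3.57% shared rises. Hsp83, the fly Hsp90, was at 1100, 1300 and 1140 CPM in RU486-fed Act88F-GS thoraces, against 1920, 1750 and 1970 CPM in their controls, and at 720, 734 and 712 CPM in RU486-fed w1118 thoraces, against 764, 889 and 843 CPM in their controls. In heads it was at 545, 546 and 555 CPM after RU486, against 539, 527 and 551 CPM. Both thorax pairs were apart and the head groups overlapped. Hsp83 had a common change of -0.34 (SE 0.07, adjusted p = 0.0256). Its head change of -0.07 was negative only under the scaling of the heads alone, as the head means were 549 CPM after RU486 and 539 CPM in controls. Ero1L, an oxidase of the endoplasmic reticulum, had a common change of -0.23 (SE 0.06) and a head change of -0.05, with head means of 49.9 CPM after RU486 and 48.4 CPM in controls. Both head changes were positive against control 3, at 0.07 for Hsp83 and 0.07 for Ero1L. Hsp26, a small heat shock protein, had a common value of -0.34 (SE 0.30, adjusted p = 0.42), with 0.31 in Act88F-GS, -0.78 in w1118 and -0.61 in elav-GS.

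None of 72 genes of the mitochondrial ribosome, 76 of OXPHOS, 18 of the TCA cycle or 13 of glycolysis was shared in either direction. Over all measured genes the share was 6.06%. Their medians in Act88F-GS thoraces were -1.01, -1, -1 and -0.86, while those in the other 2 experiments lay between 0.02 and 0.22. The response differed between experiments for 60 of the 72 mitochondrial ribosome genes and 56 of the 76 OXPHOS genes, against 25.9% of all measured genes. CG30493 (now Coq9, of ubiquinone synthesis) was at 48.7, 48.2 and 46.8 CPM in RU486-fed Act88F-GS thoraces, against 168, 205 and 205 CPM in their controls. It was at 96.6, 75.9 and 85.2 CPM in RU486-fed w1118 thoraces, against 70.6, 77.8 and 85.6 CPM in their controls, and at 17.2, 22.4 and 15.1 CPM in RU486 heads, against 10.4, 12.2 and 13 CPM in control heads. The groups were apart in opposite directions in Act88F-GS thoraces and heads and overlapped in w1118. The common value of CG30493 was -0.44 (SE 0.30, adjusted p = 0.296). Las, mRpS5, CG41128 and CG10924 had common values of -0.61, -0.51, -0.56 and -0.78, with adjusted p from 0.103 to 0.202, and Hsp60 one of -0.08 (adjusted p = 0.235). None of 35 proteasome and none of 85 cytosolic ribosome genes was shared. The lists of small heat shock proteins (10 genes), JAK-STAT signalling (11), antioxidant defence (18), lipid storage (24), the circadian clock (15), insulin and growth (27), autophagy (22) and phototransduction (20) held no shared gene either, and ScpX, the sterol carrier protein X (0.28, SE 0.06), was the shared one of 16 fatty acid oxidation genes.

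The shared rises had longer transcripts than measured genes in general. The median exonic length in the later annotation BDGP6.54 was 2760 bases for the shared rises, 1940 for the shared falls and 2117 for all measured genes, and it was 5458 for the 76 separated rises. In 4 equal classes of exonic length, short to long, 2.99%, 2.63%, 3.19% and 5.58% of genes were shared rises and 2.1%, 3.56%, 3.07% and 1.29% were shared falls. All measured genes of the longest class, shared or not, had median changes of 0.036 in Act88F-GS, 0.079 in w1118 and 0.053 in elav-GS. In the shorter classes these medians lay between -0.031 and 0.007. With a correction for length within each library, 519 genes were shared rises, of which 306 were among the 358, and 243 were shared falls, of which 194 were among the 250. The X chromosome held 15.2% of the rises, 8.47% of the falls and 16.6% of all measured genes that could be placed.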

How the data were processed

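Messenger RNA of 18 samples, 3 per group, was sequenced from stranded libraries. StrongARM was used by the authors for mapping to BDGP5.75 and HTSeq for counting, and each deposited file holds raw counts of 15682 gene symbols, plus 5 summary lines that were left out. The submitters' processing notes also list dm3, BWA and STAR. Reads per library ran from 34020840 to 96176923, which limits precision for rare transcripts. Reads on no feature were 9.13, 8.86 and 9.43% in RU486-fed Act88F-GS thoraces, against 11.6, 13.3 and 13% in their controls. In heads they were 6.37, 6.8 and 6.77% after RU486, against 5.98, 5.83 and 5.97%, and in w1118 the groups overlapped. The part of these differences in the calls was not tested. Chi-square values between replicates ran from 10.7 to 425 per degree of freedom, so no library was a repeat of another. Groups came from the labels.

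Counts were scaled by TMM and tested with edgeR 4.0.16 (R 4.3.3, limma 3.58.1) by its quasi-likelihood test, with Benjamini-Hochberg adjustment at 0.05, after filterByExpr. The common effect came from experiment plus treatment. Each experiment was also fitted alone, and a difference between experiments was tested with 2 degrees of freedom. A gene was shared when the common effect was called and its sign was the same in all 3. CPM values are not logged, and correlations across genes carry no test. The labels do not say what a replicate number marks. Same-numbered RU486 and control libraries deviated together in w1118 (r of 0.474, 0.257 and 0.518), but not in Act88F-GS (-0.147, 0.0436 and -0.0975) or elav-GS (-0.0865, 0.0975 and 0.0312). The reported fits have no term for the replicate number. It entered as a block only in alternative fits.

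Genes were named by a rule: with log2 CPM averaging 1 or more and groups that did not overlap in any experiment, the 10 rises and up to 10 falls with the largest smallest change; the 5 rises and 5 falls with the smallest p; shared members of the gene lists; and the 8 genes that the study measured by qRT-PCR. The members, the 36 gene lists and 7 later ones were chosen with earlier results of these data known. Symbols were matched to the BDGP6.54 annotation for 15369 of 15682, of which 3426 by synonym. Alternatives were other scalings and filters, DESeq2 1.42.0, limma voom and trend, a mean of group contrasts, a replicate block, leaving out samples or experiments and, chosen after seeing the data, leaving out the head controls with other organs' transcripts a replicate block in w1118 only and a length correction. The scripts were tested on simulated data.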

Additional observations from a re-analysis of the deposited data

Results flagged for a closer look

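The response to RU486 differed between the 3 experiments, by edgeR's test with 2 degrees of freedom at an adjusted p under 0.05, for 2600 of the 10038 genes measured in all of them, and for 30 of the 74 genes that the rules name. Groups of 3 samples were not tested for single samples that stand apart.

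Among the genes whose groups did not overlap, the adjusted p of the difference was 4.42e-05 for Dhc93AB, 0.000188 for CG14692, 0.00744 for Act79B and 0.0125 for ems, and 0.0156 for CG9740 and 0.0245 for fal among the falls. The first 4 were widest in elav-GS heads, the others in Act88F-GS thoraces.

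Of the odorant-binding genes, Obp57c had an adjusted p of 0.00498, Obp19a of 0.00516, Pbprp1 of 0.0191, Pbprp3 of 0.0357 and Obp57a of 0.0471, and each had its smallest change in w1118 thoraces. The same held for Cyp4d21 (0.00323), Cyp313a1 (0.0121) and CG17324 (0.0305), for ss (0.00196) and kni (0.00879), and for the cuticle genes Cpr65Au (0.000806) and Cpr62Bb (0.00216). The muscle gene Mp20 (0.0243) was widest in Act88F-GS thoraces, as were the Toll pathway genes psh (0.0125), Dif (0.0245), spz (0.0404) and Tl (0.0423).

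Among the falls, Hsp83 had an adjusted p of 0.00651 and CG30000 of 0.0379, both with the largest change in Act88F-GS thoraces. For mitochondrial and metabolic genes that were not shared, the adjusted p was 1.23e-06 for Las, 5.5e-06 for CG30493, 1.38e-05 for mRpS5, 0.00016 for CG41128 and 0.000265 for CG10924.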

How the results depend on the processing

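The number of genes with a common effect, 378 higher and 273 lower, moved with the scaling, to 673 higher with DESeq2's size factors, 653 with upper quartiles and 722 with total counts, and the shared rises moved to 653, 628 and 666 in the same order. The shared falls whose groups did not overlap, 10 as reported, then came to 26, 16 and 16. With no filter 587 genes were higher and 95 lower, and 561 and 93 were shared. DESeq2 called 1525 higher and 1446 lower, of which 1252 and 671 were shared. Limma voom called 620 lower. An unweighted mean of the 3 contrasts gave 1243 higher and 1949 lower, with 930 and 714 shared.

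Leaving out single libraries gave 13 to 557 genes higher and 11 to 497 lower, 13 to 527 shared rises and 10 to 403 shared falls, 10 to 227 separated rises and 2 to 54 separated falls, and 1692 to 4838 genes that differed between experiments. Without the Act88F-GS experiment there were 0 calls in edgeR (1339 higher and 1697 lower at an unadjusted p under 0.05), and 5 values that had not been called were positive in place of negative, at 0.35 for CG30493, 0.20 for CG41128, 0.010 for Hsp60, 0.077 for Las and 0.17 for mRpS5. Without the elav-GS experiment there were 0 calls as well (1713 and 1764 at an unadjusted p under 0.05), and without the w1118 experiment 602 genes were higher. Without w1118 RU486 replicate 1 and head control 3 the separated genes came to 181 and 22 and those that differed to 5257. Without head controls 1 and 2, chosen after seeing the data, all counts of called, shared and separated genes were 0, and they were also 0 when w1118 RU486 replicate 1 was left out too (1505 higher and 1879 lower at an unadjusted p under 0.05). The cause of these shifts was not tested.

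With a replicate block in w1118 thoraces only, chosen after seeing the data, 271 genes were higher and 264 lower, 259 and 239 were shared, 56 and 10 of these were separated, and 2724 genes differed between experiments. With the replicate number as a block in all 3 experiments, edgeR gave 0 genes higher, 0 lower, 0 shared and 0 separated in either direction (1384 higher and 1633 lower at an unadjusted p under 0.05), and 2317 genes differed between experiments.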
